A study of Mus musculus with 5 samples.

Results

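The serpins were followed in the livers of 5 inbred mouse strains. The family was taken as every probe set whose annotated symbols include a name built from Serpin, a clade letter and a number, which gave 59 of the 45101 probe sets on the array and 46 of its 19324 gene symbols. Of these 59, 3 are annotated to several serpins at once. The strains were RIIIS/J, NZW/LacJ, FVB/NJ, C57BL/6J and BALB/CByJ, with 1 Affymetrix expression array each, and every array carried liver RNA pooled from 3 untreated males of 10 weeks. The strains are whole inbred genetic backgrounds, so a difference between them cannot be tied to a single locus here, and no strain serves as a control. With 1 pool per strain there is no replicate check, so no p-value is given and a difference is described by its size alone. In bulk liver RNA, fewer cells of a type and less RNA per cell cannot be told apart.

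Serpins are proteins of a shared fold that mostly inhibit serine proteases by offering a reactive loop as bait, being cut in it and then snapping into a form that traps the protease. The liver secretes most serpins of blood plasma, where they restrain elastase, thrombin, plasmin and the first complement proteases, while clade B members lack a classical signal peptide and act largely inside cells. Some members have given up inhibition and carry hormones or fold collagen. In the mouse, clade A and clade B have expanded into clusters of closely related genes.

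The arrays also differed outside the serpins. None of 6 hepatocyte markers was at least 2-fold apart in any strain, and their summed signal was 222451 to 250970 over the arrays. Lymphoid and other blood cell transcripts were high in FVB/NJ: 4 of 4 detected B cell markers and 5 of 6 T and NK cell markers were at least 2-fold higher there, against 5.76% of all genes, and the summed B cell signal was 16898 in FVB/NJ against 94.2 to 226 in the other strains. Of the detected markers of other cells, 3 of 3 for neutrophils, 3 of 4 for platelets, 2 of 4 for erythroid cells, 2 of 7 for macrophages and 1 of 5 for stellate cells were higher in FVB/NJ too. The summed neutrophil signal was 618 in FVB/NJ against 39.5 to 77.7, the platelet signal 2088 against 46.2 to 51.9, and the erythroid signal 5109 against 1103 to 3547. Exocrine pancreas transcripts were high in RIIIS/J, with 5 of 5 detected markers higher, against 0.955% of all genes, and a summed signal of 54318 against 705 to 1287. Some of these markers counted as detected only through the strain in which they were high, so they had to be highest there. Examples are Cd3d, at 165 in FVB/NJ and 4.42 to 4.57 elsewhere, and Cpa1, at 4650 in RIIIS/J and 5.14 to 5.59 elsewhere. Of 17 detected clock genes 4 were lower in RIIIS/J, against 1.7% of all genes, 2 were higher in BALB/CByJ, against 0.789%, and 1 was lower in NZW/LacJ, against 0.714%. In the other direction 1 clock gene was higher in RIIIS/J, against 0.955% of genes, and 1 in NZW/LacJ, against 0.756%. A range of at least 2-fold was seen in 16 of the 17, as in 3635 of all 12039 genes. Their median log2 difference from the mean of the other strains was -0.79 in RIIIS/J and -0.48 in NZW/LacJ. It was 0.30 in C57BL/6J, 0.89 in BALB/CByJ and 0.31 in FVB/NJ. Dbp, a rhythmic transcription factor gene, read 75.5 in RIIIS/J, against 6439 in C57BL/6J, 8951 in BALB/CByJ, 4939.5 in FVB/NJ and 1023 in NZW/LacJ. The part of these differences in the serpin values was not tested. Acute phase and male-biased liver genes are given beside the serpins they concern.

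Promoters of clade A members are shown first, because members that were steady across strains and members that were not lie in the same cluster on chromosome 12. Most probe sets of the alpha-1-antitrypsin genes, Serpina1a to Serpina1e, differed little between strains. Serpina1e, however, was read only by a set shared with Serpina1c and Serpina1b, which ranged 2.76-fold. Each of these genes had a motif of the hepatocyte factor HNF1 in the promoter window. The capitals mark that motif in 46 bases of each promoter. Read 5′ to 3′ on the minus strand of GRCm38.p6, from RefSeq, they are Serpina1a at chr12:103863615-103863660, Serpina1b at chr12:103738190-103738235, Serpina1c at chr12:103904952-103904997, Serpina1d at chr12:103773624-103773669 and Serpina1e at chr12:103956950-103956995.
Serpina1a: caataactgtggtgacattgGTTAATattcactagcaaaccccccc
Serpina1b: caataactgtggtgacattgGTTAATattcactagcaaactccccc
Serpina1c: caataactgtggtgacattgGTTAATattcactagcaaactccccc
Serpina1d: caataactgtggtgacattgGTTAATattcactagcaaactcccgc
Serpina1e: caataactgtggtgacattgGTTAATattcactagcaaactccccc
The letters GTTAAT, on either strand, were found in 5 of these 5 promoters, in 12 of 63 serpin promoters, Serpina7 with its 5.32-fold range among them, and in 7.1% of the 32851 promoter windows of 250 bases before to 50 after a start. Over the whole 300 base windows the 10 pairs of these promoters were 63.9% to 91.4% identical in global alignment. Pairs with Serpina1e were 63.9% to 69.3% identical and the others 85.2% to 91.4%.

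Among the members that ranged at least 2-fold between strains, the promoters of Serpina11, Serpina12, Serpina3a and Serpina3n are shown, all from the C57BL/6J reference sequence of RefSeq (GRCm38.p6). Serpina11 lies at chr12:103989908-103990207 and Serpina12 at chr12:104044394-104044693, both on the minus strand, and Serpina3a at chr12:104112474-104112773 and Serpina3n at chr12:104406458-104406757 on the plus strand. The capitals mark a STAT palindrome in Serpina11, and an HNF4 core on the reverse strand and a TATA box, read on both strands, in Serpina3a.
Serpina11: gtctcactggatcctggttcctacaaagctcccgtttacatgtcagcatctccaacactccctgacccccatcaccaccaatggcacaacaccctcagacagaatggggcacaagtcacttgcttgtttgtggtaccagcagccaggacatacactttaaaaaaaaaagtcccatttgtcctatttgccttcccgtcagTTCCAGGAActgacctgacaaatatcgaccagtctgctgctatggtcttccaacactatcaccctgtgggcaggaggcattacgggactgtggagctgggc
Serpina12: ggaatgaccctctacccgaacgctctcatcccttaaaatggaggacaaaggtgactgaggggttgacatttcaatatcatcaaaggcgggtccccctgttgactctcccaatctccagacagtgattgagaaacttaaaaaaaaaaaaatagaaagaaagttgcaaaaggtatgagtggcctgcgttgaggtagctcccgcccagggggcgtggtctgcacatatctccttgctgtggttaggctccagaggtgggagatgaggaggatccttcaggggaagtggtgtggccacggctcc
Serpina3a: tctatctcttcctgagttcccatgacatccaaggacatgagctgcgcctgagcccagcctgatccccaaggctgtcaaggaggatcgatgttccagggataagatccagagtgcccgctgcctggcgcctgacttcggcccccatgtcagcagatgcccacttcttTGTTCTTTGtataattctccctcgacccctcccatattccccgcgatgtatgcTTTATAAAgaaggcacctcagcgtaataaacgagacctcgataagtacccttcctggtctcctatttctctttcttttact
Serpina3n: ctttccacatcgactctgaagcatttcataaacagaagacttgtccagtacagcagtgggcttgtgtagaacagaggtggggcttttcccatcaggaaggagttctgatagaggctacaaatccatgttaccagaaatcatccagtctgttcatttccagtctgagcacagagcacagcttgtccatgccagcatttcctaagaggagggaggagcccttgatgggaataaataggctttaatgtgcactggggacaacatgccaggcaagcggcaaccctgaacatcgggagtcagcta
The motifs searched on both strands were the HNF1 motif, an HNF4 core CAAAGNNCA found in 6.36% of all windows, a C/EBP palindrome TTGCNNCAA in 2.08%, a STAT palindrome TTCNNNGAA in 8.3%, an E-box CACGTG in 7.15% and a TATA box TATAAA in 13.6%. None of these letters were in the Serpina12 and Serpina3n windows. The match in Serpina11 and those in Serpina3a are descriptions of the reference sequence and not sites shown to be bound.

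Detection was judged against a floor of 8.22 in intensity, the level under which 95% of the readings lay for 83 probe sets of odorant, pheromone and taste receptor genes, and lower values were raised to it before any fold was taken. By this floor 31 of the 59 serpin probe sets were detected in all 5 strains and 7 more in some of them, 38 in all. The other 21 stayed between 3.96 and 8.13 on every array, and most of them belong to clade B, where 16 of 27 were under the floor. These include Serpinb2, Serpinb7, Serpinb9b and the set shared by Serpinb9h, Serpinb9g, Serpinb9e and Serpinb9f. Serpina1f and Serpina3i were under the floor too, as was Serpini2, an exocrine pancreas serpin gene, which read 8.13 in RIIIS/J and 5.57 to 6.14 in the other strains.

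The detected members ran from a nearly constant level, through intermediate ranges, to differences of several-fold between strains. A range of at least 2-fold from the lowest to the highest strain was seen in 17 of 38 detected probe sets, against 29.8% of all probe sets tested, and one of at least 4-fold in 11 of 38, against 8.94%. At least 1 strain stood 2-fold or more from every other in 11 of 38, against 11.8%. The 17 lay in clade A, with 13 of 18 detected, and clade B, with 4 of 11, the latter near the 29.8% of all probe sets. Some probe sets passed the floor only through the strain in which they were high, so they had to differ. Among the 31 above the floor on all arrays 13 ranged at least 2-fold, against 30.4% of all such probe sets. Without the FVB/NJ array the count was 15 of 38 against 20.7%, and without both FVB/NJ and RIIIS/J it was 14 of 38 against 12.6%. Probe sets of the same gene are not independent, and with 1 probe set per annotation 13 of 29 ranged at least 2-fold.

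**Figure D1:**
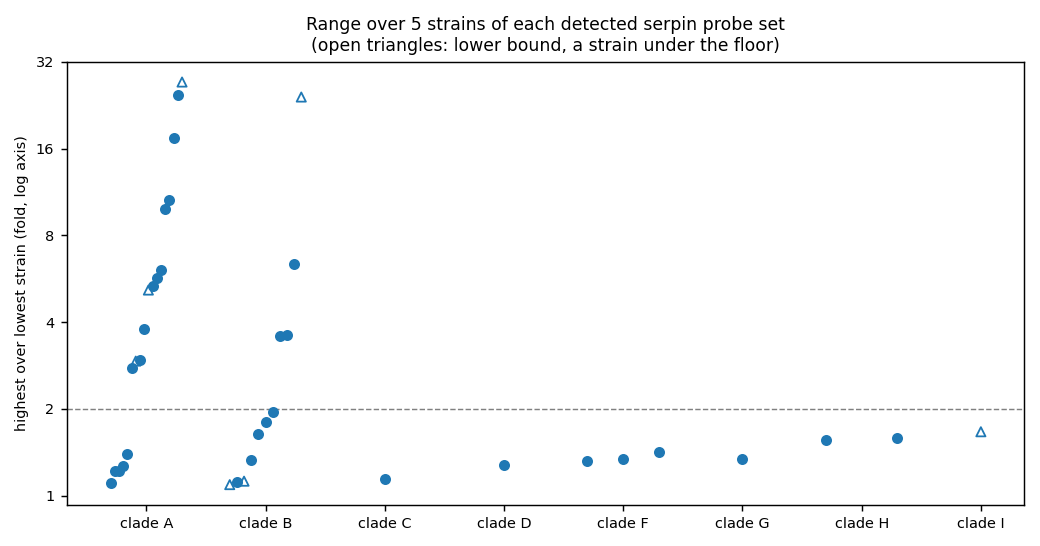
Each point is a detected serpin probe set, placed by clade on the horizontal axis and by the ratio of its highest to its lowest strain on a log vertical axis, with open triangles for ratios that are lower bounds and a dashed line at 2-fold. Clades A and B hold all 17 probe sets above the line, while those of clades C, D, F, G, H and I lie under it.

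The secreted inhibitors outside clade A were steady. Serpinc1, which encodes antithrombin, the main inhibitor of thrombin and factor Xa, read 24546 in C57BL/6J, 22746 in BALB/CByJ, 23689 in FVB/NJ, 25985 in NZW/LacJ and 26061 in RIIIS/J, a range of 1.15-fold. Serpind1, the gene of heparin cofactor II, a second thrombin inhibitor, read 8878 to 11352, and Serping1, the gene of the C1 inhibitor of complement and kallikrein, read 10659 to 14261. Serpinf2, which encodes alpha-2-antiplasmin, the inhibitor of plasmin, read 7276 to 10267 with a range of 1.41-fold. Serpinf1, the gene of the non-inhibitory factor PEDF, ranged 1.31-fold on one probe set and 1.34-fold on the other, highest in C57BL/6J on both. Serpinh1, which encodes the collagen chaperone HSP47 and is made mainly by collagen-producing cells, read 55.5 to 88.2 and 62.1 to 96.5 on its probe sets, with C57BL/6J highest and RIIIS/J lowest on both. Serpini1, the neuroserpin gene, was near the floor, at 13.7 in NZW/LacJ and 7.52 to 8.86 in the other strains.

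In a list of 33 target proteases 25 were detected, and 4 of them were at least 2-fold apart from every other strain, against 11.9% of all genes taken at 1 probe set each. A range of at least 2-fold was seen in 10 of the 25, as in 3635 of all 12039 genes. All 4 set FVB/NJ apart (3 higher, against 5.76% of genes, and 1 lower, against 0.532%): Gzma, a granzyme gene, at 30.3 against 7.75 to 7.96, Htra1 at 51.9 against 12.8 to 17.2, Ctss, a cathepsin gene of antigen-presenting cells, at 3719 against 547 to 1315, and on the low side Ctsl, another cathepsin gene, at 5642 against 15475 to 16636. Prothrombin (F2, 21793 to 24444) and plasminogen (Plg, 24735 to 27784) varied little. Of 33 other plasma protease inhibitors 21 were detected and 4 were apart, namely Spink1, a pancreatic trypsin inhibitor gene, at 194 in RIIIS/J against 5.65 to 6.49, Wfdc2 at 98.0 in NZW/LacJ against 7.59 to 19.3, and in FVB/NJ Timp2, at 337 against 128 to 145, and Tfpi, the tissue factor pathway inhibitor gene, at 75.0 against 23.4 to 36.6. Pzp (39300.4 to 43993), the murine alpha-2-macroglobulin gene of liver, and Ambp (29903 to 33124), the bikunin gene, ranged little. Among 29 cofactors, receptors and regulators 26 were detected, 10 of them ranged at least 2-fold, and Sorl1 alone, at 199 in FVB/NJ and 6.62 to 7.47 elsewhere, was apart, while Vtn, whose product vitronectin binds a serpin in plasma, read 20419 to 27310. Gzma, Spink1 and Sorl1 counted as detected only through the strain in which they were high, so they had to be highest there.

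Alpha-1-antitrypsin is the main plasma inhibitor of neutrophil elastase, and in the mouse its genes form a tight group of paralogues whose number is known to differ between inbred strains. The probe set annotated to Serpina1d and Serpina1a read 62964 in C57BL/6J, 65798 in BALB/CByJ, 60216 in FVB/NJ, 73474 in NZW/LacJ and 62875 in RIIIS/J. Serpina1c read 32523 to 39630.5, and the sets for Serpina1b ranged 1.40-fold and 1.11-fold. Alb, the albumin gene, read 63745 to 74714 on these arrays, and whether intensities so high are compressed was not tested. The exception was the probe set shared by Serpina1e, Serpina1c and Serpina1b. It read 9271 in C57BL/6J, 10501 in BALB/CByJ, 5509.9 in FVB/NJ, 15207 in NZW/LacJ and 9579.6 in RIIIS/J, with NZW/LacJ 2.76-fold above FVB/NJ and the other strains between them. These near-identical paralogues can cross-hybridise, so the signal cannot be assigned to a single gene. Serpina10, the gene of the protein Z-dependent inhibitor of factor Xa, was steady at 5209.6 to 6605.

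Serpina12, which encodes the adipokine vaspin, a kallikrein inhibitor, had the widest range among serpin probe sets above the floor in every strain. It read 11999 in NZW/LacJ, against 1668 in C57BL/6J, 489.9 in BALB/CByJ, 2051 in FVB/NJ and 3525 in RIIIS/J. NZW/LacJ thus stood 3.40-fold above RIIIS/J, the nearest strain, and BALB/CByJ 3.40-fold below C57BL/6J, and the whole range was 24.5-fold. A second Serpina12 probe set was above the floor in NZW/LacJ alone, at 42.4 against 6.06 to 6.45, at least 5.17-fold higher. Between them these sets are the 2 serpin probe sets higher in NZW/LacJ than in every other strain, against 0.819% of all probe sets.

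Serpina6, the gene of corticosteroid-binding globulin, the plasma carrier of glucocorticoids, ran the other way. It read 3048 in NZW/LacJ, against 7052 in C57BL/6J, 8344 in BALB/CByJ, 11489 in FVB/NJ and 9851 in RIIIS/J. NZW/LacJ lay 2.31-fold below the nearest strain, the 1 serpin probe set lower in that strain, against 0.729% of all probe sets. In the same array 4 of 16 detected male-biased liver genes were higher, against 0.756% of genes, namely Sult5a1, a sulfotransferase gene, at 894 against 45.0 to 398, Obp2a at 811 against 6.38 to 159, Susd4 at 1659 against 41.3 to 435, and Ugt2b38 at 3468 against 185 to 1056. In BALB/CByJ 2 of that list were lower, again Susd4 and Sult5a1, against 0.432% of genes. Of 22 detected acute phase genes 5 were higher in NZW/LacJ, against 0.756% of genes. Among them were Saa1, a serum amyloid A gene, at 18764 against 449 to 1310.0, and Saa2 at 5624 against 80.1 to 225. From the same list 3 were lower in C57BL/6J, against 0.415% of genes, and 0 higher, against 0.49%. In RIIIS/J 3 were lower, against 1.7% of genes, and 1 was higher, against 0.955%. The part of either group in the Serpina12 and Serpina6 values was not tested.

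The other carrier in clade A, Serpina7, encodes thyroxine-binding globulin and lies on the X chromosome. It read 652 in C57BL/6J, 216 in BALB/CByJ, 305 in FVB/NJ, 398 in NZW/LacJ and 123 in RIIIS/J. The strains formed a gradual order, C57BL/6J being 1.64-fold above NZW/LacJ and RIIIS/J 1.76-fold below BALB/CByJ, so no strain was 2-fold apart although the range was 5.32-fold.

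A further set of clade A genes was highest in BALB/CByJ and lowest in C57BL/6J. Serpina4-ps1, a transcribed pseudogene related to the kallistatin gene, read 302 in C57BL/6J, against 5271 in BALB/CByJ, 3555 in FVB/NJ, 1573 in NZW/LacJ and 1542 in RIIIS/J on the probe set with the widest range. C57BL/6J lay 5.10-fold below the nearest strain there, and 3.63-fold and 3.09-fold below on the other probe sets of the gene, which kept the same highest and lowest strain. On 2 of the 3 sets BALB/CByJ and FVB/NJ together stood above the other strains, by 2.497-fold and 2.26-fold. On the third, NZW/LacJ and RIIIS/J had exactly equal values of 1706.

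Serpina11, next to the Serpina1 genes on the chromosome, read 7304 in BALB/CByJ, against 1285 in C57BL/6J, 3718 in FVB/NJ, 2460.0 in NZW/LacJ and 3070.1 in RIIIS/J. Its extreme strains were each just short of 2-fold from their neighbours, at 1.96-fold and 1.91-fold, and the range was 5.68-fold. Serpina9, which in humans is a serpin gene of germinal centre B cells, read 118 in BALB/CByJ, against 11.99 in C57BL/6J, 30.6 in FVB/NJ, 52.0 in NZW/LacJ and 32.3 in RIIIS/J. BALB/CByJ was 2.27-fold above and C57BL/6J 2.56-fold below the nearest strain, but the gap of C57BL/6J was under 2-fold with a higher floor of 28.2. The part of B cells in the Serpina9 values was not tested. Serpina3n, a murine counterpart of the acute phase antichymotrypsin gene, read 5008 in BALB/CByJ, against 1698 in C57BL/6J, 2350.3 in FVB/NJ, 2829 in NZW/LacJ and 2209 in RIIIS/J. Of the other acute phase genes, Saa1 was highest in NZW/LacJ, while Saa3 was highest in BALB/CByJ, at 362 against 286 in NZW/LacJ. The part of an acute phase response in the Serpina3n values was not tested.

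This order, noticed in the data, was shown by 6 of 38 serpin probe sets with a range of at least 2-fold, against 0.529% of all probe sets tested. The 6 probe sets belong to only 4 genes, Serpina11, Serpina9, Serpina4-ps1 and Serpina3n, and 3 of them are Serpina4-ps1. By strain, 4 serpin probe sets were lower in C57BL/6J than in every other strain, against 0.431% of all probe sets, and 0 were higher, against 0.517%. The 4 are the Serpina4-ps1 sets and Serpina9. In RIIIS/J 0 serpin probe sets were higher, against 1.41%, and 0 lower, against 1.58%, and in FVB/NJ 0 were lower, against 0.494%.

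Serpina5 and Serpina3a were detected in some strains only. Serpina5, the gene of the protein C inhibitor, read 24.1 in BALB/CByJ, against 6.35 to 6.95 in the other strains, all under the floor, so it was at least 2.93-fold higher. With Serpina9 it made up the 2 probe sets higher in BALB/CByJ, against 0.76% of all probe sets. Serpina3a, an expanded paralogue of the antichymotrypsin group, read 171 in BALB/CByJ and 224 in RIIIS/J, against 7.37 in C57BL/6J, 6.32 in FVB/NJ and 7.37 in NZW/LacJ. Both strains were well above the floor and the other strains under it, a split of at least 20.8-fold. Splits of 2 strains against 3 by at least 2-fold were seen in 5 of 38 serpin probe sets, against 2.16% of all probe sets.

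**Figure D2:**
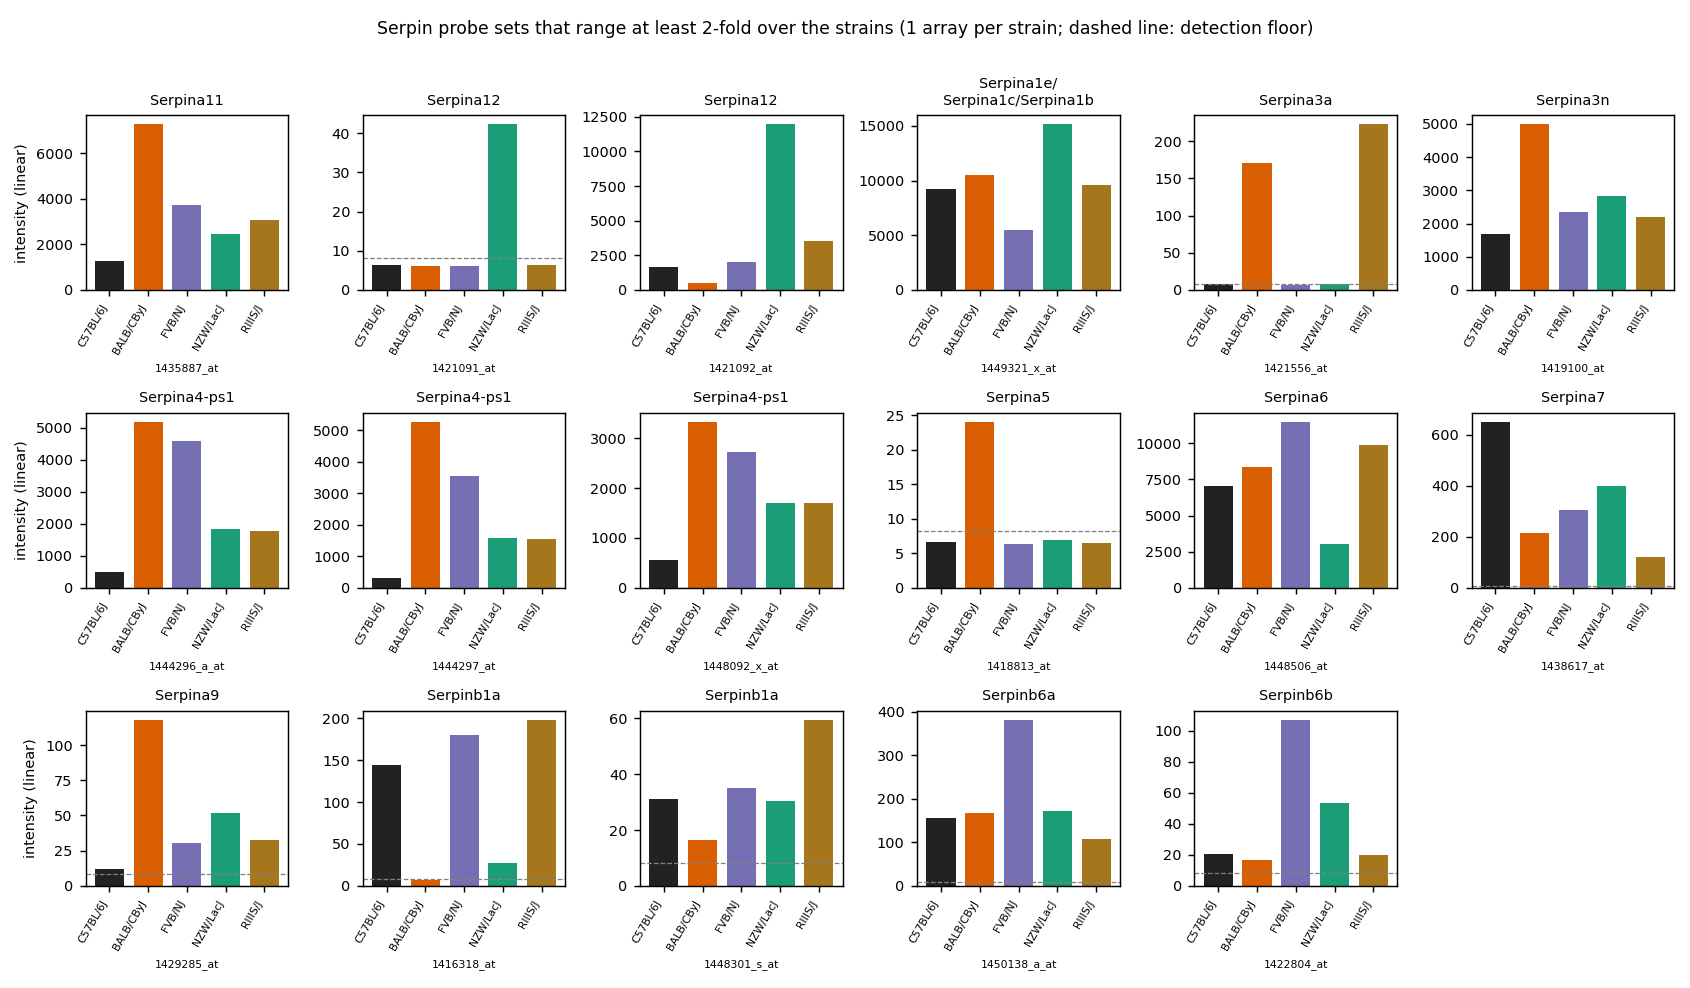
Each panel is 1 of the 17 serpin probe sets that range at least 2-fold, with a bar for the linear intensity on the single array of each strain and a dashed line at the floor of 8.22. Serpina12 is highest in NZW/LacJ in both of its panels, Serpina3a is seen in BALB/CByJ and RIIIS/J only, and the 3 panels of Serpina4-ps1 share their order of highest and lowest strain.

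The clade A genes were then set in their order along chromosome 12, as listed in RefSeq for GRCm38.p6. The run from Serpina10 to Serpina3n holds 28 serpin genes and pseudogenes, 14 of which had a detected probe set. Serpina10, Serpina6 and the Serpina1 paralogues come first. Among these Serpina6 ranged 3.77-fold and the probe set shared by Serpina1e, Serpina1c and Serpina1b 2.76-fold. The members that follow, Serpina11, Serpina9, Serpina12, Serpina4-ps1, Serpina5 and Serpina3a, each ranged at least 2-fold. Of these, Serpina5 and Serpina3a passed the floor only in the strains where they were high. The members from Serpina11 to Serpina3a follow each other in that order apart from Gm31271, a noncoding gene before Serpina4-ps1. BALB/CByJ was highest in Serpina11, Serpina9, Serpina4-ps1 and Serpina5 but lowest in Serpina12, which lies among them. Of the 8 nearest detected genes outside the run, 4 on each side, 3 ranged at least 2-fold (Ifi27l2a, Ifi27 and Clmn), as did 3635 of all 12039 genes. BALB/CByJ was highest in 3 of the 8, and these ranged 1.20-fold (Snhg10), 1.29-fold (Ppp4r4) and 1.85-fold (Dicer1).

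**Figure D3:**
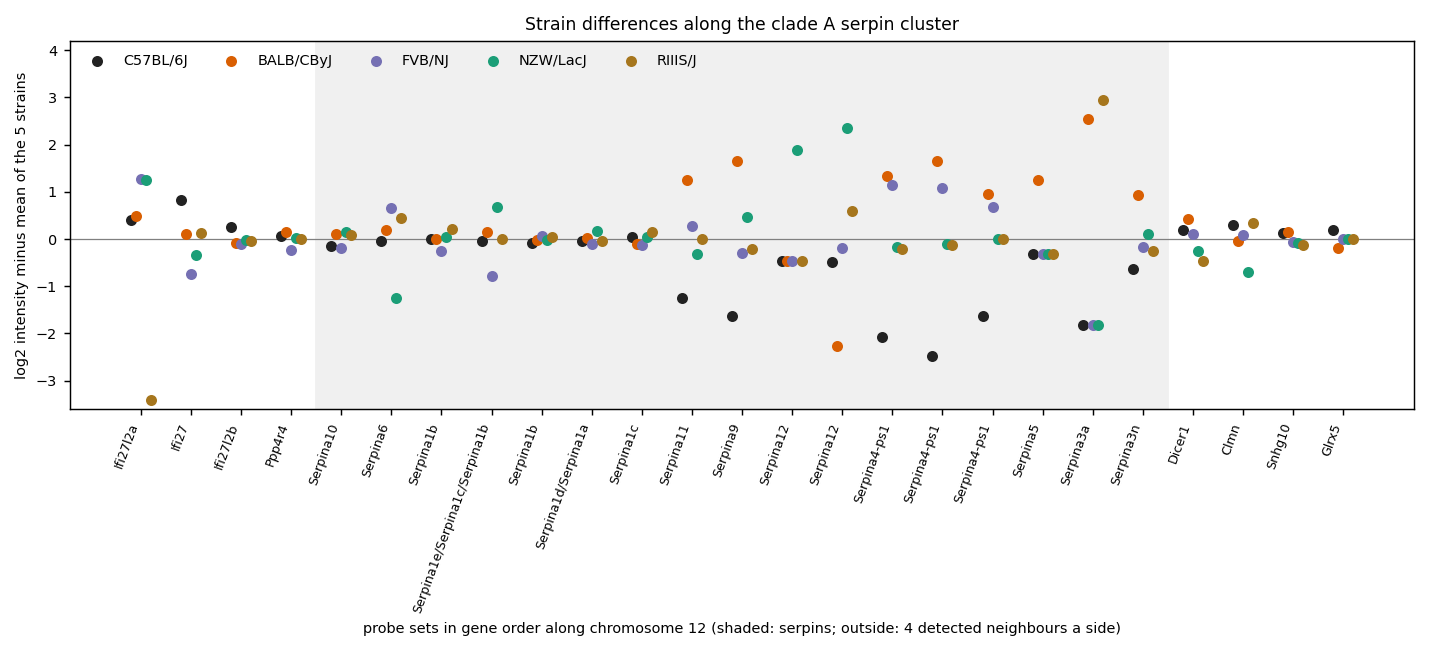
The vertical axis gives each strain's log2 intensity minus the mean of the 5 strains, for detected probe sets in gene order along chromosome 12, with the serpins shaded and 4 neighbouring genes on each side. Apart from the one shared by Serpina1e, Serpina1c and Serpina1b, the Serpina1 sets lie near 0. From Serpina11 to Serpina3n BALB/CByJ is at the top except in Serpina12 and Serpina3a, and Serpina6 on the other side is low in NZW/LacJ.

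Clade B members were mostly low in liver. Serpinb1a, which encodes an inhibitor of neutrophil elastase, read 144 in C57BL/6J, 180.3 in FVB/NJ and 198 in RIIIS/J on one probe set, against 26.9 in NZW/LacJ and 6.69 in BALB/CByJ. The lowest of these 3 higher strains stood 5.37-fold above NZW/LacJ, and BALB/CByJ, under the floor, was at least 3.27-fold below it. On the other Serpinb1a probe set BALB/CByJ was again lowest, at 16.5, but NZW/LacJ (30.5) was level with C57BL/6J (31.1) and FVB/NJ (34.9), and RIIIS/J read 59.5. Both sets had the same lowest and highest strain and differed on NZW/LacJ. Serpinb1a and Serpina12 were the 2 serpin probe sets lower in BALB/CByJ, against 0.396% of all probe sets.

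Serpinb6a and Serpinb6b, related genes of intracellular inhibitors, were highest in FVB/NJ. Serpinb6a read 382 in FVB/NJ, against 156 in C57BL/6J, 166 in BALB/CByJ, 171 in NZW/LacJ and 107 in RIIIS/J, 2.23-fold above the nearest. Serpinb6b read 107 in FVB/NJ, against 20.5 in C57BL/6J, 16.8 in BALB/CByJ, 53.2 in NZW/LacJ and 20.1 in RIIIS/J, 2.02-fold above the nearest, and under 2-fold once the arrays were quantile normalised. These were the 2 serpin probe sets higher in FVB/NJ, or 5.26% of the detected members against 5.27% of all probe sets, and thus near the background. Most of the lymphoid, neutrophil and platelet markers counted above were also higher in FVB/NJ. So were 2 of 4 detected erythroid, 2 of 7 macrophage and 1 of 5 stellate markers. The part of these cells was not tested. In NZW/LacJ, where Serpinb6b was second highest, the summed B cell signal was the lowest of the arrays, at 94.2. That low sum came from Ighm, at 49.2 against 174 to 178 in C57BL/6J, BALB/CByJ and RIIIS/J. Cd79a, Cd79b and Ms4a1 were not lowest in NZW/LacJ. The summed macrophage signal was the highest in NZW/LacJ, at 3558 against 1495 to 2549 in the other strains. Of its markers, Clec4f (1152) and Cd5l (1678) were highest there, and Marco, Timd4, Adgre1, C1qa and Cd163 were not. The part of either cell type in the Serpinb6b values was not tested.

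Serpinb9, the gene of a granzyme B inhibitor that shields cells from cytotoxic granules, read 97.7 to 129 on one probe set with no strain apart. Its other probe set read 29.6 in FVB/NJ and 26.4 in C57BL/6J, against 16.1 in BALB/CByJ, 15.8 in NZW/LacJ and 15.1 in RIIIS/J, a range of 1.96-fold that the first set did not share. Serpinb8 (17.7 to 28.9) and Serpinb6e (10.6 to 19.1) were highest in NZW/LacJ, and Serpinb3a (14.3 to 15.9) was flat. A second set of Serpinb8 and a set of Serpinb5 were at the floor, at 6.86 to 9.22.

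Pairs of strains were compared by the share of serpin probe sets at least 2-fold apart. The 10 pairs share their arrays and are not independent of each other. C57BL/6J and BALB/CByJ differed in 11 of 37 serpin probe sets, or 29.7%, against 4.82% of all probe sets, with 3 higher in C57BL/6J and 8 in BALB/CByJ. C57BL/6J differed from NZW/LacJ in 9 of 36 (background 7.62%), from FVB/NJ in 8 of 35 (10.7%) and from RIIIS/J in 8 of 36 (10.0%). In each case 7 of those were lower in C57BL/6J. The 3 probe sets of Serpina4-ps1, a single gene, were among the lower ones in every C57BL/6J pair, that with BALB/CByJ included. BALB/CByJ differed from NZW/LacJ in 11 of 38 (8.66%), from FVB/NJ in 9 of 34 (11.3%) and from RIIIS/J in 9 of 36 (11.7%). FVB/NJ differed from NZW/LacJ in 9 of 36 (13.8%) and from RIIIS/J in 6 of 35 (16.2%), a share of 17.1% that is near the background. NZW/LacJ and RIIIS/J differed in 7 of 37 (8.24%).

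**Figure D4:**
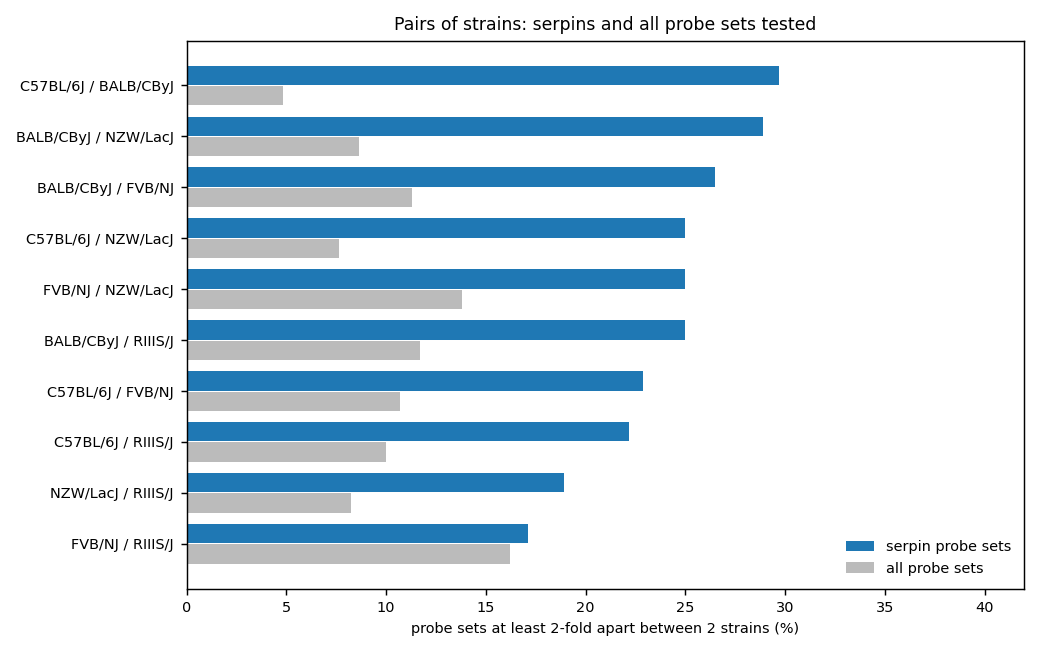
For each of the 10 pairs of strains, the upper bar gives the percent of serpin probe sets and the lower bar the percent of all probe sets at least 2-fold apart. C57BL/6J and BALB/CByJ are apart in 29.7% of serpins and 4.82% of all probe sets, and FVB/NJ and RIIIS/J in 17.1% and 16.2%.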

How the data were processed

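Liver RNA of 5 strains was hybridised to Affymetrix arrays, 1 per strain, each from a pool of 3 males. The deposited values are probe set intensities on a linear scale, for which the submitters' processing notes name GCRMA and GCOS as the tools of the authors. Their versions and settings are not given in the sources used here, nor is a genome build. Column medians were 8.35 to 8.85. The number of arrays limits the precision.

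Intensities were used as deposited, raised to a floor of 8.22, from receptor genes not expected in liver, and converted to log2. With 1 array per strain no test was run. Alternatives were another floor or none, quantile normalisation, a 4-fold threshold, probe sets of 1 gene, 1 probe set per annotation and leaving out each array. Gene names came from the platform annotation, by which 34958 probe sets have 1 gene, 932 several and 9211 none, and 64 controls were left out of the tests. Of 46 member symbols 46 matched RefSeq and 40 had a promoter there. A strain was called apart where it was at least 2-fold above or below the nearest of the other 4. Shares over all members are set beside those over all 25529 probe sets tested, and shares of gene lists beside those over 12039 genes taken at the probe set of highest mean log2 intensity. Probe sequences were not used here, so a sequence variant under a probe and a lower transcript level cannot be told apart.

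Every detected serpin was described. From the companion lists the members apart by the largest gap, up to 4, and up to 2 of the highest level were named. Members and lists were chosen with earlier results of these data known. The calling code was run on simulated data with planted shifts and little noise. That checks the code and cannot show how far pools of the same strain differ. Python 3.11.15, numpy 2.4.6, pandas 2.3.3 and matplotlib 3.10.9 were used.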

Additional observations from a re-analysis of the deposited data

How the results depend on the processing

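The counts were 11 serpin probe sets apart from every other strain, 17 ranging at least 2-fold and 5 split 2 against 3. With the floor at the 99th percentile (intensity 28.2), 8 were apart, 1 probe set was higher and 1 lower in BALB/CByJ, 3 were lower in C57BL/6J, where Serpina9 lost its call with a gap of -0.12 on the log2 scale, and 1 was higher in NZW/LacJ. After quantile normalisation 1 was higher in FVB/NJ, since Serpinb6b fell to a gap of 0.78 on the log2 scale. With 1 probe set per annotation, which leaves fewer probe sets, 2 were lower in C57BL/6J and 1 higher in NZW/LacJ. At a 4-fold threshold 2 were apart, 11 ranged that far and 2 were split, with 1 lower in C57BL/6J, 1 higher in NZW/LacJ and 0 each for BALB/CByJ higher, BALB/CByJ lower, FVB/NJ higher and NZW/LacJ lower. No floor, or probe sets of 1 gene only, left each count within 1.5 times. Leaving out an array gave 8 to 12 apart and 14 to 17 ranging at least 2-fold. Per strain it gave 0 to 1 higher and 4 to 5 lower in C57BL/6J, 2 to 5 higher and 2 to 2 lower in BALB/CByJ, 2 to 4 higher and 0 to 0 lower in FVB/NJ, 2 to 3 higher and 1 to 2 lower in NZW/LacJ, and 0 to 1 higher and 0 to 1 lower in RIIIS/J. Of these, BALB/CByJ reached 5 higher without FVB/NJ, FVB/NJ reached 4 without BALB/CByJ, C57BL/6J had 1 higher without NZW/LacJ, and without BALB/CByJ NZW/LacJ had 2 lower and RIIIS/J 1 higher and 1 lower. Leaving out C57BL/6J or BALB/CByJ was added after seeing the data, and a split of 2 against 3 has no value with 4 arrays. Of 48 repeats of the 13 single gaps under another floor, scaling or probe set, 42 stayed past 2-fold, 6 did not and 0 changed direction, and Serpina5, under the higher floor on all arrays, is not among these repeats there. Many of the 42 could not have come out otherwise. Taking the floor away can only keep or widen a gap, and all 13 stayed past 2-fold there. A higher floor leaves a gap between values above it unchanged. The 3 Serpina4-ps1 sets were also checked against each other. The order with BALB/CByJ highest and C57BL/6J lowest was shown by 4 probe sets with 1 per annotation and by 5 at 4-fold. No paired analysis was possible because no strain has a second array. Signal near the floor limits Serpina5, Serpina9, Serpina3a, Serpinb1a and the weaker Serpina12 probe set.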
